A study of Mus musculus with 6 samples.

Results

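Desmosomal plaque proteins and plakins lie on the inner side of the desmosome, and the desmosomal membrane protein PERP is counted with them here. The 9 genes described here (*Dsp*, *Ppl*, *Evpl*, *Jup*, *Pkp1*, *Pkp2*, *Pkp3*, *Pkp4* and *Perp*) were chosen by symbol from the 24982 genes listed for each library, and all 9 were listed. A desmosome is a spot-like junction that ties the keratin filaments of neighbouring epithelial cells together. Its membrane-spanning cadherins, the desmogleins and desmocollins, bind plakoglobin and plakophilins inside the cell, and these bind desmoplakin, which holds the keratin filaments. In epidermis, desmosomes carry mechanical load, and the plakins periplakin and envoplakin are also built into the cornified envelope of the outermost cells.

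RNA was sequenced from cultured C57BL/6 mouse keratinocytes that came from neonatal skin, with 3 libraries of a line kept in KSFM-Ca2+ medium and 3 libraries of cells kept in DKSFM. KSFM-Ca2+ is a serum-free keratinocyte medium low in calcium, and DKSFM is a defined serum-free keratinocyte medium with more calcium. The DKSFM cells were derived from the KSFM-Ca2+ cells and adapted to their medium, so the medium, the adaptation and the descent of the line cannot be told apart. No cells received a treatment, and the labels do not say whether replicates were separate cultures, so the p-values measure the spread between these libraries, which may be technical.

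The deposited value of a gene is its mean read coverage per base. Summed over all genes, listed coverage was 1601676, 1238411 and 1057751 in KSFM-Ca2+ replicates 1 to 3 and 1174348, 1239438 and 1170675 in DKSFM replicates 1 to 3. Values below are normalized coverage, which is coverage after scaling between libraries. Changes are log2 fold changes of DKSFM over KSFM-Ca2+ from limma fitted to 12472 genes, and a gene is called when its adjusted p is under 0.01. Because coverage is per base, levels of different genes can be set side by side, though the gene models behind the coverage values are not stated (the study names a RefSeq mm10 reference for its alignment).

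The cells in both groups carried keratinocyte markers. The 6 markers *Krt5*, *Krt14*, *Trp63*, *Itga6*, *Itgb4* and *Cdh1* summed to a normalized coverage of 17790, 18260 and 17940 in the KSFM-Ca2+ libraries and 43370, 39580 and 43870 in the DKSFM libraries, with *Krt14* the most abundant. Of these markers, 4 were called higher in DKSFM and 2 lower, though the calls of *Trp63*, *Itga6* and *Cdh1* were lost under some alternatives. Markers of other cell types were mostly at or near 0, with some exceptions at a low level. Of 7 fibroblast markers, 6 (*Col1a1*, *Col1a2*, *Col3a1*, *Dcn*, *Lum* and *Thy1*) were listed at 0 in all 6 libraries, and the list, led by *Pdgfra*, summed to 1.15, 0.901 and 1.31 in KSFM-Ca2+ and 2.35, 2.12 and 2.25 in DKSFM. The 6 melanocyte markers, led by *Pmel*, summed to at most 0.901 in any library, with *Tyr* and *Dct* at 0. The 5 immune markers, led by *Cd74*, summed to 1.23, 1.60 and 1.91 in KSFM-Ca2+ and 0, 0.202 and 0 in DKSFM, with *Cd3e* and *Tyrobp* at 0. The 4 endothelial markers, led by *Pecam1*, summed to 2.85, 3.20 and 3.34 in KSFM-Ca2+ and 8.33, 8.36 and 7.49 in DKSFM, with *Cdh5* at 0. The 3 Merkel cell markers, led by *Sox2*, summed to 4.54, 4.51 and 3.10 in KSFM-Ca2+ and 7.91, 8.06 and 7.28 in DKSFM, with *Atoh1* at 0. *Pecam1* (2.81 ± 0.257 in KSFM-Ca2+ and 7.64 ± 0.597 in DKSFM), *Sox2* (4.02 ± 0.796 and 7.75 ± 0.414) and *Pdgfra* (1.12 ± 0.207 and 2.24 ± 0.118) were called higher in DKSFM, at levels up to about that of *Pkp2*, the lowest of the 9 genes, and *Cd74* was called lower. The call of *Pdgfra* was lost with only the libraries whose files carry the word combined, at a log2 fold change of 0.73. The part of these markers in the results below was not tested.

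All 9 genes passed the filter on low coverage, and all 9 were called higher in DKSFM, where 35.2% of tested genes were called higher and 37.2% were called lower. A change of at least 2-fold was called for 6 of the 9, against 13.2% of tested genes that were higher and 10.6% that were lower by that much. When limma's treat asked for more than 2-fold, 4 of these 6 passed, and *Evpl* and *Pkp1* did not (adjusted p = 0.216 and 0.518). In all 9 genes every DKSFM library lay above every KSFM-Ca2+ library, as was the case for 41% of tested genes. The median log2 fold change of the 9 was 1.12, and that of all tested genes was -0.004. Since these are bulk RNA samples, more cells that express a gene and more RNA per cell cannot be told apart.

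**Figure D1:**
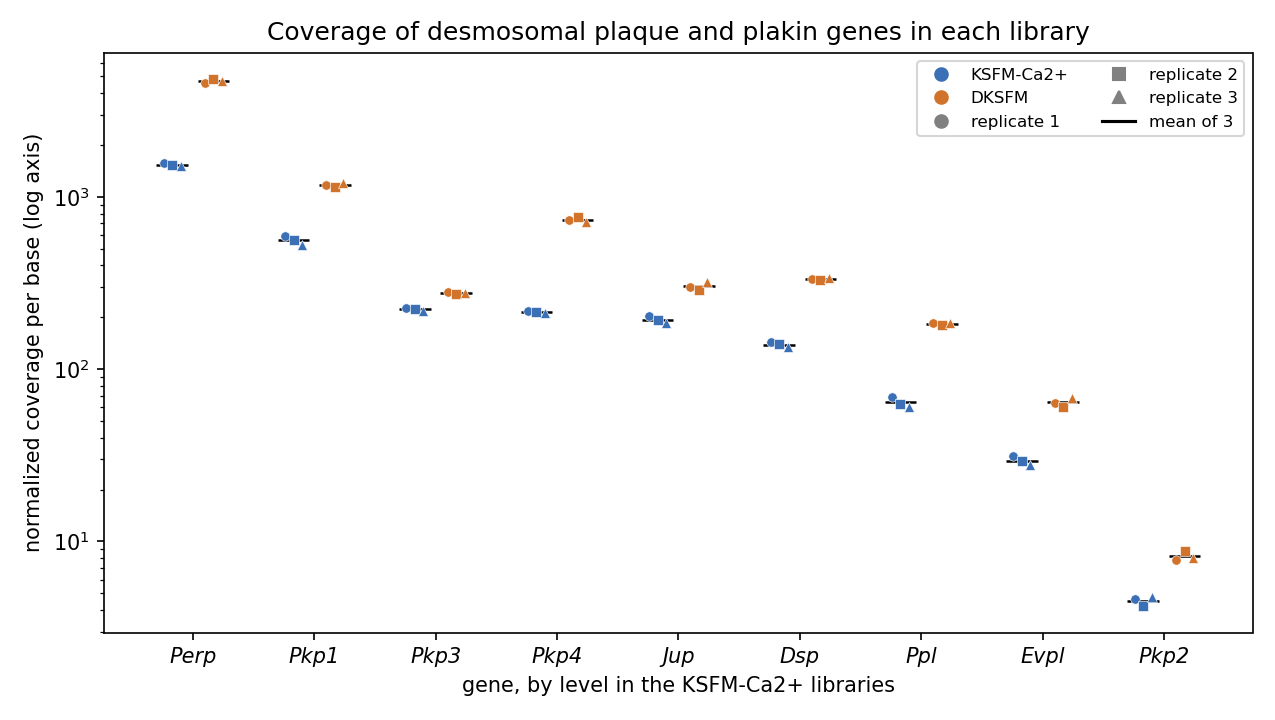
Normalized coverage per base on a log axis for the 9 genes in each library (blue, KSFM-Ca2+; orange, DKSFM; symbols, replicates 1 to 3; bars, means of 3). The groups do not overlap in any of the 9 genes, and levels run from under 10 for *Pkp2* to 4805 for *Perp* in DKSFM replicate 2.

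Desmoplakin, the plakin that links the plaque to keratin filaments, is encoded by *Dsp* (chromosome 13 from 38151294 to 38198577, GRCm38). Its normalized coverage was 143, 140 and 134 in KSFM-Ca2+ replicates 1 to 3, and 331, 330 and 339 in DKSFM replicates 1 to 3. The groups were far apart next to the spread within them, with means of 139 ± 4.44 and 334 ± 4.71 (SD, n = 3 libraries). The log2 fold change was 1.26 (standard error 0.032, 95% interval 1.19 to 1.34, adjusted p = 1.11e-08, limma). An exon of *Gm10129*, on the opposite strand, overlaps *Dsp* exons in GENCODE M21, and that gene is not listed in the files.

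Periplakin and envoplakin are the plakins that also enter the cornified envelope. *Ppl* (chromosome 16 from 5086291 to 5132421) had a coverage of 69.3, 62.9 and 60.0 in the KSFM-Ca2+ libraries and 185, 180 and 186 in the DKSFM libraries. Among the 3 plakins it changed most, by a log2 fold change of 1.52 (standard error 0.052, adjusted p = 5.48e-08, limma). *Evpl* (chromosome 11 from 116220559 to 116238077) had 31.2, 29.3 and 27.9 in KSFM-Ca2+ and 63.9, 60.1 and 68.4 in DKSFM. Its lowest DKSFM library was well above its highest KSFM-Ca2+ library, and its log2 fold change was 1.12 (95% interval 0.98 to 1.26, adjusted p = 6.23e-07, limma), an interval that includes a change of under 2-fold.

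Within the summed coverage of the 3 plakins, *Dsp* held 58.7%, 60.3% and 60.4% in the KSFM-Ca2+ libraries and 57.1%, 57.9% and 57.1% in the DKSFM libraries. *Ppl* moved from 28.5%, 27.1% and 27.0% to 31.9%, 31.6% and 31.4%. *Evpl* fell from 12.8%, 12.6% and 12.6% to 11.0%, 10.5% and 11.5%. The ratio of *Ppl* to *Evpl* was 2.23, 2.14 and 2.15 in KSFM-Ca2+ and 2.90, 2.995 and 2.72 in DKSFM, so the pair did not rise in step. No test was made of these shares.

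Plakoglobin, an armadillo protein close to beta-catenin, joins desmosomal cadherins to the plaque. Its gene *Jup* (chromosome 11 from 100368958 to 100397763) was covered at 204, 192 and 186 in KSFM-Ca2+ and 299, 287 and 320 in DKSFM. The groups did not overlap, and the change stayed under 2-fold (log2 fold change 0.64, standard error 0.049, 95% interval 0.53 to 0.75, adjusted p = 5.33e-06, limma). Beta-catenin's gene *Ctnnb1* went the other way, from 690 ± 12.4 to 604 ± 8.73 (log2 fold change -0.19, adjusted p = 0.000178, limma). *Jup* therefore stood at 0.289, 0.281 and 0.273 of *Ctnnb1* coverage in KSFM-Ca2+ and at 0.504, 0.469 and 0.528 in DKSFM. In coverage, *Dsp* was below *Jup* in KSFM-Ca2+ and above it in DKSFM. The ratio of *Dsp* to *Jup* was 0.701, 0.727 and 0.721 in KSFM-Ca2+ and 1.11, 1.15 and 1.06 in DKSFM.

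Plakophilins are armadillo proteins that cluster desmosomal components and strengthen the plaque. *Pkp1* (chromosome 1 from 135871395 to 135919207), the plakophilin best known from suprabasal epidermis, had a coverage of 593, 562 and 525 in KSFM-Ca2+ and 1170, 1133 and 1197 in DKSFM. It was the most covered plakophilin in every library, and its log2 fold change was 1.06 (standard error 0.046, 95% interval 0.96 to 1.17, adjusted p = 1.78e-07, limma). *Pkp3* (chromosome 7 from 141078218 to 141090510), which is found throughout the epidermal layers, was at 225, 223 and 218 in KSFM-Ca2+ and 280, 272 and 278 in DKSFM. Of the 9 genes it changed least, by a log2 fold change of 0.32 (standard error 0.027, adjusted p = 9.58e-06, limma), and 32.0% of tested genes had a larger one.

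*Pkp4* (chromosome 2 from 59160850 to 59355208), also called p0071, encodes a relative of the plakophilins that is found at adherens junctions as well as desmosomes. It was covered at 217, 215 and 213 in KSFM-Ca2+ and 730, 759 and 715 in DKSFM. Of the 9 genes it changed most, with a log2 fold change of 1.77 (standard error 0.029, 95% interval 1.704 to 1.84, adjusted p = 1.55e-09, limma), and 7.26% of tested genes had a larger one. *Pkp2* (chromosome 16 from 16213318 to 16272712), the main plakophilin of heart muscle, was the lowest of the 9, at 4.62, 4.21 and 4.77 in KSFM-Ca2+ and 7.80, 8.76 and 8.03 in DKSFM. Its log2 fold change was 0.84 (standard error 0.085, adjusted p = 2.98e-05, limma).

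Taken as shares of the summed plakophilin coverage, *Pkp4* rose from 20.9%, 21.5% and 22.2% in the KSFM-Ca2+ libraries to 33.4%, 34.9% and 32.5% in the DKSFM libraries. *Pkp3* fell from 21.6%, 22.2% and 22.7% to 12.8%, 12.5% and 12.7%. *Pkp1* moved little, from 57.0%, 55.9% and 54.7% to 53.5%, 52.1% and 54.4%, and *Pkp2* was under 0.5% throughout. *Pkp3* and *Pkp4* were thus nearly level in KSFM-Ca2+ and far apart in DKSFM.

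**Figure D2:**
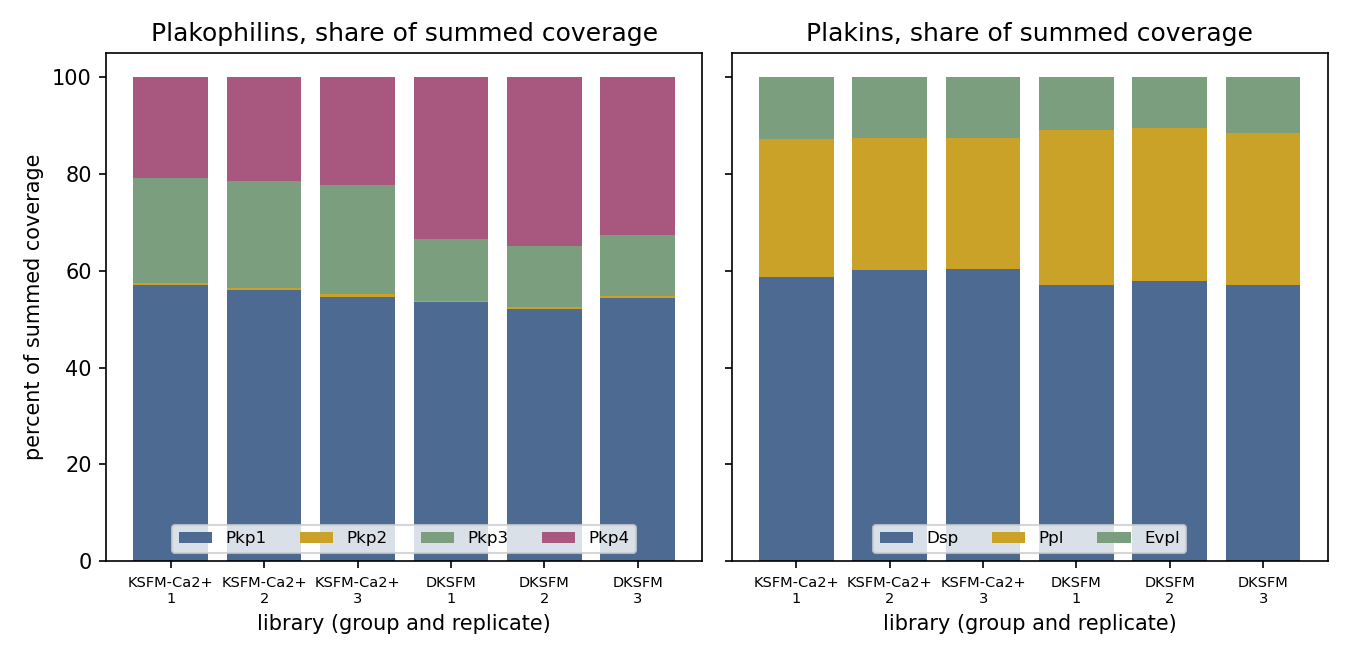
Percent of summed coverage held by each plakophilin (left) and each plakin (right) in the 6 libraries, from 0 to 100. *Pkp4* takes a larger part and *Pkp3* a smaller part of the plakophilin sum in each DKSFM library, and the plakin shares differ less.

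*Perp* (chromosome 10 from 18845020 to 18857073) encodes a tetraspan membrane protein of desmosomes that is a target of p53 and p63. It was the most covered of the 9 genes, at 1570, 1525 and 1502 in KSFM-Ca2+ and 4604, 4805 and 4705 in DKSFM. All DKSFM libraries were far above all KSFM-Ca2+ libraries (log2 fold change 1.62, standard error 0.03, 95% interval 1.55 to 1.69, adjusted p = 2.49e-09, limma). In level it stood at percentile 99.2 of tested genes in KSFM-Ca2+ and 99.9 in DKSFM.

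In KSFM-Ca2+ the order of mean levels was *Perp*, *Pkp1*, *Pkp3*, *Pkp4*, *Jup*, *Dsp*, *Ppl*, *Evpl* and *Pkp2*. In DKSFM it was *Perp*, *Pkp1*, *Pkp4*, *Dsp*, *Jup*, *Pkp3*, *Ppl*, *Evpl* and *Pkp2*, so *Pkp4* and *Dsp* moved up and *Pkp3* moved down. No neighbours in either order overlapped between libraries, but *Pkp3* and *Pkp4* in KSFM-Ca2+ were close, with a ratio of means of 1.03 and the lowest *Pkp3* library at 218 beside the highest *Pkp4* library at 217. Together the 9 genes held 0.248%, 0.238% and 0.228% of all listed coverage in KSFM-Ca2+ replicates 1 to 3 and 0.611%, 0.628% and 0.624% in DKSFM.

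**Figure D3:**
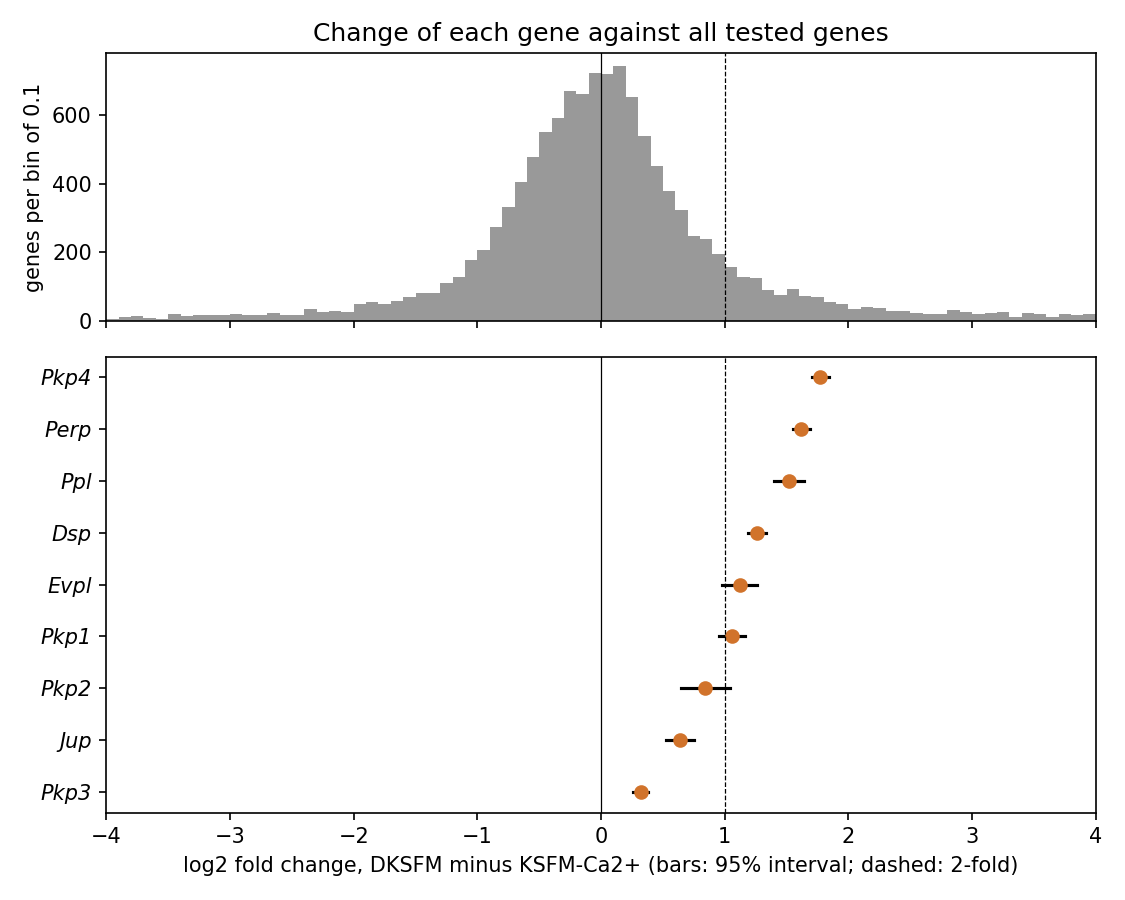
Upper panel, number of tested genes in bins of 0.1 by log2 fold change of DKSFM over KSFM-Ca2+, shown from -4 to 4; lower panel, the 9 genes with 95% intervals, the dashed line marking 2-fold. All 9 lie to the right of 0, from 0.32 for *Pkp3* to 1.77 for *Pkp4*.

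The membrane partners of the plaque did not move as one. Of 9 desmosomal cadherin genes, 7 were tested, 4 were called higher in DKSFM and 2 lower, with a median log2 fold change of 0.67. *Dsc3*, the most covered, rose from 499 ± 28.2 to 791 ± 23.1 (log2 fold change 0.67, adjusted p = 2.23e-06, limma), and *Dsg3* was not called (209 ± 13.2 and 200 ± 6.10, adjusted p = 0.258, limma). *Dsc2* was lower in DKSFM, at 19.8 ± 1.42 against 60.8 ± 4.19. *Dsg1b* was listed at 0.1, 0.1 and 0 in KSFM-Ca2+ and 19.7, 22.1 and 21.2 in DKSFM. *Dsp* coverage set against the sum of these cadherins was 0.177, 0.177 and 0.186 in KSFM-Ca2+ and 0.330, 0.313 and 0.321 in DKSFM, and the same ratio for *Jup* was 0.253, 0.244 and 0.258 against 0.298, 0.272 and 0.303.

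Keratins, which desmoplakin binds, were mostly higher in DKSFM: 10 of 12 listed genes were called higher, 9 of them by at least 2-fold, and 0 lower, with a median log2 fold change of 2.04 over the 11 tested. *Krt5* went from 4735 ± 26.2 to 11240 ± 797. The ratio of *Dsp* to *Krt5* was 0.030, 0.0295 and 0.0285 in KSFM-Ca2+ and 0.0283, 0.0320 and 0.0290 in DKSFM. Coverage of *Dsp* and of this 1 basal keratin gene thus rose in near proportion, and the groups overlapped in this ratio. Among the 10 called keratins, log2 fold changes ran from 0.79 for *Krt6a* to 8.59 for *Krt8*. *Krt10* was not called (log2 fold change 0.49, adjusted p = 0.01, limma), and *Krt1* was not tested. *Krt8* was listed at 0.2, 0 and 0.1 in KSFM-Ca2+ and at 66.2, 64.7 and 64.6 in DKSFM.

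Of the other plakin cytolinkers, *Dst*, *Macf1* and *Eppk1* were called higher and *Plec* lower. *Plec* had 576 ± 30.7 in KSFM-Ca2+ and 441 ± 43.1 in DKSFM (log2 fold change -0.39, adjusted p = 0.00102, limma), unlike the 3 plakins above. The calls of *Macf1* and *Plec* were lost with the combined libraries only, at log2 fold changes of 0.22 and -0.33. Among 8 adherens junction plaque and related armadillo genes, 5 were tested, 4 were called lower (*Ctnnb1*, *Ctnnd1*, *Ctnna1* and *Vcl*), and *Arvcf* was called higher, from 50.4 ± 1.22 to 196 ± 5.60. *Cdh1* was slightly lower (161 ± 2.48 and 147 ± 3.35, log2 fold change -0.14, adjusted p = 0.00299, limma), and *Cdh3* was not called. The calls of *Cdh1* and *Ctnnd1* were lost under quantile normalization (adjusted p = 0.0271 and 0.0158, limma), without the intensity trend (0.0128 and 0.0126), with only the 4 libraries whose files carry the word combined (0.0257 and 0.0486) and when some single libraries were left out. Under every scaling tried the 9 plaque and plakin genes stayed higher in DKSFM.

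Cornified envelope partners of periplakin and envoplakin gave 7 of 9 genes called higher by at least 2-fold and 1, *Ivl*, called lower, with a median of 2.84 over the 8 tested. *Sbsn* was the most covered, at 58.7 ± 3.58 in KSFM-Ca2+ and 801 ± 30.6 in DKSFM. *Scel* was listed at 0, 0.1 and 0 against 57.7, 61.1 and 57.4. *Ivl*, the involucrin gene, was 21.6 ± 0.202 in KSFM-Ca2+ and 13.6 ± 0.394 in DKSFM. Among the 6 PMP22 and EMP relatives of *Perp*, 3 were called higher by at least 2-fold (*Pmp22*, *Emp1* and *Emp2*) and 1, *Tmem47*, lower, from 20.3 ± 1.22 to 0.0356 ± 0.0617.

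Of 13 transcription factor genes of epidermal and junction genes, 11 were tested, 8 were called higher, 5 of them by at least 2-fold, and 2 lower. *Klf4* rose from 58.2 ± 4.55 to 196 ± 10.8 and *Grhl1* from 20.2 ± 1.39 to 86.3 ± 2.47, while *Grhl2* was slightly lower, from 32.3 ± 0.305 to 28.5 ± 0.787, a call lost when some single libraries were left out. *Snai2* and *Zeb2*, whose products are known as repressors of epithelial junction genes, were also called higher by at least 2-fold, from 67.0 ± 2.43 to 137 ± 5.51 and from 0.838 ± 0.402 to 6.21 ± 0.299. *Trp63*, whose product acts on *Perp*, had 409 ± 12.5 and 447 ± 13.4 (log2 fold change 0.13, adjusted p = 0.00831, limma), a call lost without any 1 of the 6 libraries, and *Trp53* had 241 ± 5.47 and 150 ± 6.85 (log2 fold change -0.68, adjusted p = 8.44e-07, limma).

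**Figure D4:**
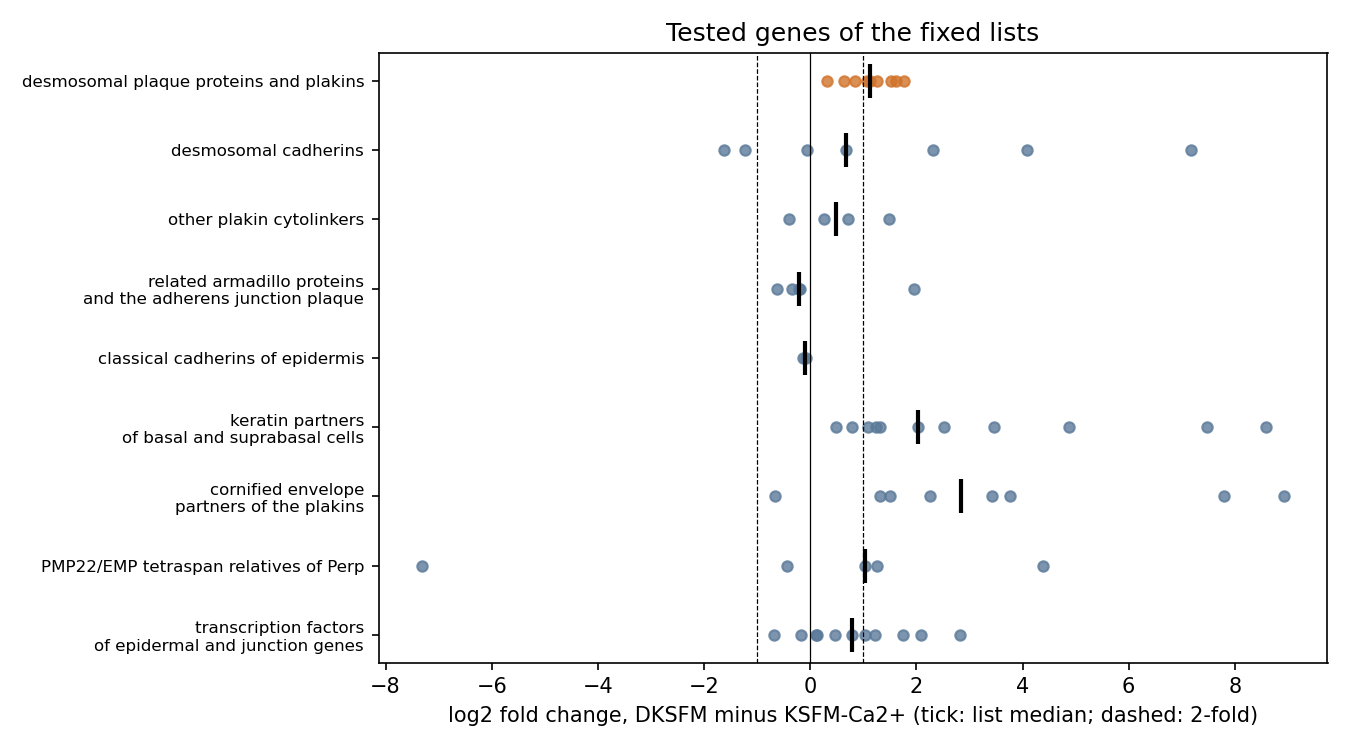
Log2 fold change of DKSFM over KSFM-Ca2+ for each tested gene of the 9 plaque and plakin genes (orange) and 8 lists of related genes (blue), with list medians as ticks and 2-fold as dashed lines. The 9 lie between 0.32 and 1.77, while the desmosomal cadherins lie on both sides of 0.

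The 9 genes sit on 7 chromosomes. *Jup* and *Evpl* are 15.8 Mb apart on chromosome 11, and *Ppl* and *Pkp2* are 11.1 Mb apart on chromosome 16. The median log2 fold change of tested genes within 10 Mb to each side, relative to that of all tested genes, was above 0 for 3 (*Ppl* 0.70, *Pkp2* 0.33, *Perp* 0.30) and below 0 for 6. Each of the 9 was above the median of its own surroundings, by 0.52 for *Pkp2* to 1.95 for *Pkp4*. With all 9 higher in DKSFM and most of these medians low, that was largely given beforehand. The share of surrounding genes with a larger log2 fold change ran from 5.26% for *Pkp4* to 25.9% for *Pkp3*. Of the 18 tested genes that lie nearest to the 9 (2 for each), 8 had a log2 fold change above 0 and 10 below 0, with a range from -4.31 to 8.05 and a median of -0.056.

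Promoter windows of 300 bases were found in the RefSeq table (GRCm38.p6) for 3 of the 9 genes, in 4 windows: *Dsp*, *Jup* and *Pkp4*, the last with 2 starts. They are described because they have a window, and whether the promoters bear on the changes was not tested. The 250 bases upstream of the *Dsp* start (chr13:38151044-38151293, plus strand), of the *Jup* start (chr11:100397791-100398040, minus strand) and of the second *Pkp4* start (chr2:59161619-59161868, plus strand) read as follows, with motif matches in capitals. The bases before the first *Pkp4* start, which hold 5 of the 6 GGGCGG matches of that window, are not printed because they overlap an exon of the protein-coding gene *Ccdc148* on the opposite strand. Those of *Dsp* overlap an exon of *Gm10129*, which is annotated without a protein.
Dsp: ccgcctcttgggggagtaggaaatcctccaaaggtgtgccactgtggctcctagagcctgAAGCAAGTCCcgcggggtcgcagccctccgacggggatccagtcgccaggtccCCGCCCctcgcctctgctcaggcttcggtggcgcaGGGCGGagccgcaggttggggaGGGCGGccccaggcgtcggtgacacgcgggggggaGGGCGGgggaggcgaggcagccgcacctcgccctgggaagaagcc
Jup: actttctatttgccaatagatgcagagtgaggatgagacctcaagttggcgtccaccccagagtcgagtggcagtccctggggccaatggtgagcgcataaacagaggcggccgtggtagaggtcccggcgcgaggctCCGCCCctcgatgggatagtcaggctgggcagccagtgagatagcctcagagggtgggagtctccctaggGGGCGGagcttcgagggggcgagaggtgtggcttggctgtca
Pkp4: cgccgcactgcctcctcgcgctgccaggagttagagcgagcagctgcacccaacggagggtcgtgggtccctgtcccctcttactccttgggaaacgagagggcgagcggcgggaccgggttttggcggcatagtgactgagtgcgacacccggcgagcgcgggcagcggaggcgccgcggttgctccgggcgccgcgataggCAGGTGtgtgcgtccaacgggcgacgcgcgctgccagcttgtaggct
The letters searched on both strands were GGGCGG for Sp and KLF factors, CAGGTG for the E-box, TGANTCA for AP-1, AACCNGTT for Grainyhead-like factors, TATAAA for the TATA box, and the p53-family decamer. GGGCGG occurred in 3 of the 4 windows, and in 62.8% of windows of tested genes and 35.7% of all 32851 windows. CAGGTG occurred in 2 of the 4, in 18.2% of windows of tested genes and in 20.2% of all, and its match in *Dsp* lies after the start, outside the printed bases. The p53-family decamer occurred in 1, that of *Dsp*, in 7.02% of windows of tested genes and in 8.36% of all. AP-1, Grainyhead-like and TATA letters were in 0 of the 4, in 5.46%, 1.86% and 7.12% of windows of tested genes, and in 7.81%, 2.09% and 13.6% of all. A match is a description of letters and not a binding site.

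For each of the 6 genes called at 2-fold, the 3 tested genes with the nearest profile were found by Euclidean distance over 6 mean-centred log2 values. They were *Sun2*, *Emp2* and *Sox4* for *Dsp* (distances 0.0341 to 0.0681), *Tmem43*, *Ppp2r3a* and *Il22ra1* for *Ppl*, and *Mospd3*, *Tmem132a* and *Trim29* for *Evpl*. For *Pkp1* they were *Klhl17*, *Xdh* and *Mgrn1*, for *Pkp4* they were *Tmem40*, *Cadm4* and *Defb1*, and for *Perp* they were *Ppp1r14c*, *Znrf2* and *Prrg2*. None of the 9 genes was among another's nearest 3. Because replicates differed little within a group, this distance mostly follows the log2 fold change (1.25 for *Sun2* beside 1.26 for *Dsp*). The neighbours are therefore genes of like change, and no regulation in common was tested.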

How the data were processed

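RNA from 6 libraries was sequenced by the authors, whose processing notes name bcl2fastq, STAR and DESeq2 and the build mm10. What the authors deposited for each gene is a coverage signal, averaged over its bases, rounded to 1 decimal and not scaled to library size. How it was computed is not stated. Libraries were scaled with unweighted TMM factors (trimmed mean of M values, trims of 30% of M and 5% of A values) and brought to the arithmetic mean of effective sizes. Genes that reached a normalized coverage of 0.5 in 3 or more libraries were fitted with limma 3.58.1 (R 4.3.3) on log2 of normalized coverage plus 0.1, using an intensity trend, with Benjamini-Hochberg adjustment over all 12472 genes. The genes named are the 9, those of fixed lists and nearest profiles, and, outside that rule, *Gm10129* and *Ccdc148*, named for their overlap with *Dsp* and with a *Pkp4* promoter window. The 9 genes and the lists were chosen with earlier results of these data known. Positions are from GENCODE M21. Alternatives were other scalings, filters, pseudocounts, thresholds, no trend, treat, a replicate block, leaving out libraries, and libraries marked combined only. Where libraries were left out, or only those marked combined were used, the filter asked for a coverage of 0.5 in 2 or more libraries.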

Additional observations from a re-analysis of the deposited data

How the results depend on the processing

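The 9 genes kept their direction and their call at an adjusted p under 0.01 in all 135 values over the 15 alternatives that refit both groups with at least 2 libraries each, leaving aside the one below that was chosen after the results were seen, with adjusted p up to 0.000319 (limma). The 6 genes at 2-fold or more stayed 6 in each alternative but testing against 2-fold itself (treat), which left 4. Leaving out each library in turn gave 8368 to 8636 genes past the threshold, with 9029 from all 6. Genes higher by at least 2-fold, 1645, became 1034 when coverage of at least 0.5 was asked of every library, which removes genes near 0 in 1 group, and 1064 under treat, while genes lower by that much, 1326, became 790 under treat, which asks for more than 2-fold.

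Replicate numbers are shared by the groups, but same-numbered libraries did not deviate together (r = -0.064, 0.045 and -0.025 over 8701 genes), so they were not treated as pairs. With a replicate block 8761 genes passed, 1649 higher and 1326 lower by at least 2-fold, and all 9 genes kept their calls, while *Trp63* and *Itga6* lost theirs (adjusted p = 0.0214 and 0.0133, limma).

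Among the genes of the lists, *Cdh1*, *Ctnnd1*, *Grhl2*, *Itga6* and *Trp63* lost their calls without 1 or another library, with adjusted p up to 0.0316 (limma), and also with the combined libraries only, where *Macf1*, *Pdgfra* and *Plec* lost theirs too. Without the trend, *Cdh1*, *Ctnnd1*, *Itga6* and *Trp63* lost theirs, with library totals *Itga6* and *Trp63*, and with no filter *Trp63*, with adjusted p up to 0.0317 (limma). *Krt10* and *Emp3*, close to the threshold, gained calls under several, among them the filter on every library, both larger pseudocounts and leaving out DKSFM replicate 3. *Pmel* gained one under quantile normalization and *Ovol2* at 0.05. *Dsg3*, not called in any alternative, changed sign under quantile normalization (0.011) and with the combined libraries only (0.041).

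An alternative chosen after the results were seen brought libraries to the geometric mean of their sizes. It was tried because it gives the number of tested genes, 12409, of an earlier analysis of these files, and the values given elsewhere do not use it. It moved no log2 fold change of the 9 genes by more than 0.00013.

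Coverage to 1 decimal limits *Pkp2* and genes near 0. The word combined marks KSFM-Ca2+ replicate 3 and all DKSFM files, is not explained, and is uneven between groups. With these 4 libraries alone, 1 KSFM-Ca2+ library is set against 3 DKSFM libraries, and it is assumed to vary as they do. Then 7286 genes passed, 1641 higher and 988 lower by at least 2-fold, and all 9 genes were called higher, with adjusted p up to 0.000887 (limma), which is no check on the spread in KSFM-Ca2+.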
